A study of Mus musculus with 4 samples.

Results

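A set of 10 matricellular and related matrix genes was followed in mouse tendon: the thrombospondin genes Thbs1, Thbs2, Thbs4 and Comp, the tenascin genes Tnc and Tnxb, the cartilage intermediate layer protein genes Cilp and Cilp2, the lubricin gene Prg4 and the periostin gene Postn. They were chosen by symbol from the annotation of the array, which gave 22180 genes at least 1 probe set of their own; all 10 were found, each with 1 probe set. Tendons of the calf, the Achilles and the plantaris, had been taken from wild-type C57Bl/6 mice aged 4 months that had received no treatment. Both groups shared strain, age and tissue and differed by sex, with 2 arrays from males and 2 from females. Tenocytes are the labelled cell type, but the RNA came from homogenised whole tendon, so every cell in the tissue contributed to it. Whether the 2 arrays of a sex hold different animals is not stated, so a p-value here reflects the spread between arrays alone, which may be technical.

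Matricellular proteins are secreted into the matrix but act mainly by binding collagen, growth factors and cell surface receptors, and many are induced by load or injury. Thrombospondins fall into trimeric forms, encoded by Thbs1 and Thbs2, and pentameric forms, encoded by Thbs4 and Comp, the latter being abundant in tendon and cartilage. Tenascins are large modular glycoproteins, of which tenascin-C marks tissue under load or repair and tenascin-X organises collagen fibrils. Lubricin coats gliding surfaces, and periostin promotes collagen crosslinking.

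RefSeq promoter windows (GRCm38.p6, from 250 bases before to 50 bases after an annotated start) were held for 7 of the 10 genes. The 4 printed here belong to genes whose signal spanned more than 1 log2 unit over the arrays, so that the sequence upstream can be read beside the patterns described further on. Capitals mark matches, on either strand, to TATAA (the TATA box core), TGANTCA (the AP-1 site), TGACGTCA (the cAMP response element) or GCGTGGGCG (the EGR site).
Cilp, chr9:65264930-65265229, plus strand: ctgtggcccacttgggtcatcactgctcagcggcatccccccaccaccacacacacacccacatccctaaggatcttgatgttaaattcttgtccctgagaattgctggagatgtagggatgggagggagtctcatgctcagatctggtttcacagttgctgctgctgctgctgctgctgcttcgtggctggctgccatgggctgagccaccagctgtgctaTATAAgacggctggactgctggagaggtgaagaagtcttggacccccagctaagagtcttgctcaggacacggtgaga
Postn, chr3:54360857-54361156, plus strand: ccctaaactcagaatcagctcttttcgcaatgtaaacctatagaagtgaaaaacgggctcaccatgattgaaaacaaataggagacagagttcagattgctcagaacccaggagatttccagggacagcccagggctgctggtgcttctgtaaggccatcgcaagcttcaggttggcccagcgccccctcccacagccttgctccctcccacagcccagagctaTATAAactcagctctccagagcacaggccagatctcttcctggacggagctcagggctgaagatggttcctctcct
Tnxb, chr17:34670285-34670584, plus strand: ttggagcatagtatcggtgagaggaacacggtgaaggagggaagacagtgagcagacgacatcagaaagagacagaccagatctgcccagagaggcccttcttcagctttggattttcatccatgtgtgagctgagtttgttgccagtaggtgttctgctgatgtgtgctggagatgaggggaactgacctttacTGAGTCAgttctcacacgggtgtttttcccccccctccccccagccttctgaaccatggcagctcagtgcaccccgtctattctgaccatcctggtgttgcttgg
Thbs2, chr17:14694213-14694512, minus strand: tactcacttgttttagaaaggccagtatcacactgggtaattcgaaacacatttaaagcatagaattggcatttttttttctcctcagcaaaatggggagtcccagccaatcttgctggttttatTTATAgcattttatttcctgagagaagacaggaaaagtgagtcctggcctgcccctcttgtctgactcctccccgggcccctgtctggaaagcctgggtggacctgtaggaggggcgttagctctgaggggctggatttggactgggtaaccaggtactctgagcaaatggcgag
The Cilp and Postn windows held TATAA in the direction of the gene, beginning 28 and 26 bases before the annotated start. The Thbs2 window matched the same letters only on the opposite strand, beginning 125 bases before the start. Of 32851 windows in the RefSeq table, 24.9% held TATAA on either strand and at any position. The share with a match in the direction of the gene at a like distance from the start was not counted. The Tnxb window held 1 AP-1 match beginning 55 bases before the start, a motif held by 7.81% of windows. No window of the 7 genes matched the cAMP response element or the EGR letters, which occurred in 1.79% and 0.612% of all windows. The downstream of the Postn starts in the table is shown. These matches describe the letters of the windows and are not evidence of binding.

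Values are log2 RMA values, the unit deposited by the authors. The medians of the 4 arrays over all rows lay between 2.27 and 2.30, and signal near that level was not told from background. The sexes of the arrays were checked first. Xist was at 2.47 and 1.98 in males 1 and 2 and at 7.34 and 8.04 in females 1 and 2. Eif2s3y ran the opposite way, at 4.46 and 4.96 in the males and 2.86 and 1.65 in the females. Kdm5d was at 2.26 and 2.85 in the males and 1.93 and 1.66 in the females. Uty was at 2.22 and 2.63 in the males and 1.87 and 1.75 in the females. In male 1, Kdm5d and Uty lay below the array's median of 2.30. Female 2 stood apart from the other arrays in its muscle and macrophage markers, and male 1 in its fat and endothelial markers. The 14 skeletal muscle markers, all measured and above the array medians, had a median of 9.13 in female 2 and of 9.89 to 10.10 in the others. The 9 macrophage markers measured, out of 10, had a median of 5.74 there and of 3.81 to 4.23 elsewhere. In male 1 the fat markers had a median of 4.04, against 4.96 to 5.50 elsewhere. The endothelial markers had a median of 3.67 in male 1, against 4.23 to 4.41. Male 1 was the lowest array in 4 of the 10 genes (Thbs2, Thbs4, Tnxb and Postn), for Thbs4 by 0.01 log2 units. It lay above the gene's own mean in 6 of the 10, and its median deviation over the 10 was 0.29. The share of all genes lowest in male 1 was not counted. Results on the 10 genes that rest on female 2 are given with and without it. In bulk tissue, fewer cells of a type cannot be told apart from less RNA per cell.

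The labelled tissue was checked on 8 tendon cell markers, all of which had a mean above the array medians. Scx, the tendon transcription factor gene, lay between 3.18 and 3.58, and Tnmd, which marks mature tenocytes, between 4.39 and 5.06. Kera, a keratocan gene, and Mkx, a tendon transcription factor gene, had the widest sex differences of this list, 0.59 (SE 0.21) and -0.43 (SE 0.24). Muscle genes also gave strong signal: Ckm, the muscle creatine kinase gene, lay between 9.72 and 10.52.

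The matricellular genes ran from among the strongest signals of the tissue to near the median gene. Of the 10, 5 ranked in the top 5% of all genes by their mean over the 4 arrays, 8 in the top 20%, while Tnc alone ranked below the median gene. Ranks order hybridisation signals and not transcript numbers, because probe sets differ in their response. The median percentile of the 10 genes was 91.4.

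Prg4 (probe set 17227892, chromosome 1), the lubricin gene, had the strongest signal of the group. It was at 10.02 in male 1, 9.74 in male 2, 9.14 in female 1 and 10.13 in female 2. Its mean of 9.76 placed it 74th of 22180 genes. Female 1 was the lowest array, and the ranges of the sexes overlapped. Within single arrays its percentile ran from 99.4 to 99.8.

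The pentameric thrombospondins came next. Comp (probe set 17501919, chromosome 8), whose product binds collagen and speeds fibril assembly, was at 8.01 and 6.64 in males 1 and 2 and at 6.90 and 8.75 in females 1 and 2. Its mean of 7.57 ranked 426th, but the 4 arrays covered 2.11 log2 units, a 4.32-fold range. Thbs4 (probe set 17294934, chromosome 13), a matrix gene of tendon and muscle, had the same mean of 7.57 and ranked 430th. It was at 7.31 and 7.32 in the males, 7.36 in female 1 and 8.28 in female 2. The other 3 arrays thus lay within 0.05 log2 units of each other and female 2 stood 0.93 above female 1.

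The trimeric thrombospondins gave weaker signals. Thbs2 (probe set 17341080, chromosome 17), which encodes an inhibitor of vessel growth needed for normal collagen fibrils in mice, was at 4.20 and 4.58 in the males and 4.84 and 5.33 in the females. Both females lay above both males, and its rank was 2759th. Thbs1 (probe set 17374488, chromosome 2), whose product activates latent TGF-beta and is also released by platelets, was at 4.52 in male 1, 2.79 in male 2, 3.55 in female 1 and 5.27 in female 2. Its range of 2.48 log2 units, or 5.57-fold, was the widest of the 10 genes. Within single arrays its percentile ran from 59.8 in male 2 to 90.9 in female 2.

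The tenascins lay at opposite ends. Tnxb (probe set 17336681, chromosome 17), the tenascin-X gene, whose loss in people causes a form of Ehlers-Danlos syndrome, was at 5.78 and 6.02 in the males, 5.92 in female 1 and 7.06 in female 2, and ranked 1063rd. Tnc (probe set 17426365, chromosome 4), the tenascin-C gene, was at 2.73, 2.04, 2.46 and 2.42 in male 1, male 2, female 1 and female 2. Its mean of 2.41 was close to the array medians and its rank was 11510th. The value in male 2 lay below the median of its own array, so no level of Tnc was told from background there.

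The remaining genes covered the middle of the range. Cilp (probe set 17518512, chromosome 9), whose product binds TGF-beta and IGF1, was at 7.98 in male 1, 6.25 in male 2, 6.28 in female 1 and 7.66 in female 2, and ranked 605th. Its relative Cilp2 (probe set 17509879, chromosome 8) was at 3.69, 3.04, 2.98 and 3.83 in the same order, and ranked 6105th. In both genes male 2 and female 1 were the low arrays. Postn (probe set 17397575, chromosome 3) ranked 4320th, with values of 3.09 in male 1, 4.69 in male 2, 3.17 in female 1 and 4.99 in female 2. Here male 1 and female 1 were low, a different order from that of Cilp.

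**Figure D1:**
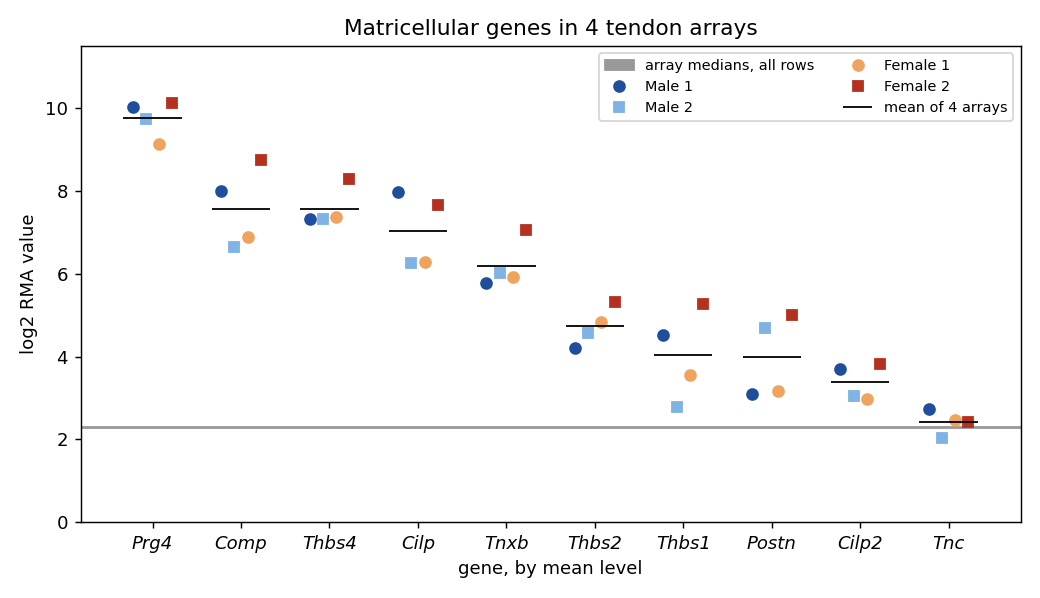
Log2 RMA values of the 10 matricellular genes (vertical axis) by gene, ordered by mean level (horizontal axis); each point is 1 array, the black line is the mean of the 4 arrays and the grey band spans the array medians over all rows (2.27 to 2.30). Prg4 lies highest, Tnc lies at the band, and the red squares of female 2 are the highest point in 8 of the 10 genes.

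Of the 9 pairs of neighbours in the order of levels, 3 had ranges that did not overlap, namely Prg4 above Comp, Tnxb above Thbs2 and Cilp2 above Tnc. Comp and Thbs4 differed in their means by 0.0045 log2 units and Comp was the higher in 2 of 4 arrays. Thbs1 and Postn differed by 0.05, with Thbs1 the higher in 3 of 4 arrays. The order of these neighbours was therefore not larger than the spread over arrays.

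**Figure D2:**
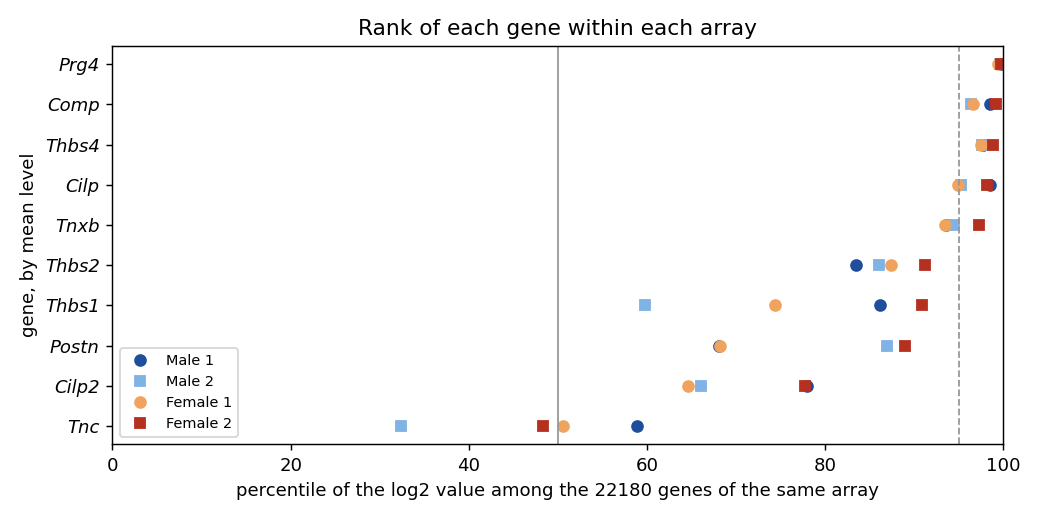
Percentile of each gene's log2 value among the 22180 genes of the same array (horizontal axis, 0 to 100) for the 10 genes ordered by mean level (vertical axis); points are single arrays, the solid line marks the 50th and the dashed line the 95th percentile. Prg4, Comp, Thbs4 and Cilp stay at or near the dashed line or beyond in every array, while Thbs1 runs from 59.8 to 90.9.

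The spread over arrays was wide for these genes. A range above 1 log2 unit was found in 6 of the 10 (Thbs1, Comp, Postn, Cilp, Tnxb and Thbs2), against 12.8% of all genes and 23.9% of the genes above the median level. The median range was 1.20 for the 10 genes, 0.44 for all genes and 0.65 for the genes above the median level. Without female 2 the range stayed above 1 in 4 of the 10, namely Thbs1 (1.73), Cilp (1.73), Postn (1.60) and Comp (1.37). Tnxb then covered 0.24 log2 units and Thbs4 0.05.

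Arrays did not order alike in every gene, and the following orders were noticed in the values and then counted. Female 2 was the highest array in 8 of the 10 genes, against 24.8% of all genes and 27.7% of those above the median level. It lay above the gene's own mean in 10 of 10, with a median deviation of 0.67, while the median deviation over all genes in that array was -0.0094. For Tnc, near background, the deviation was 0.006 in female 2 and 0.05 in female 1. The share of all genes above their own mean in female 2 was not counted. Male 1 and female 2 were the 2 highest arrays for Thbs1, Comp, Cilp, Cilp2 and Prg4, that is 5 of 10, against 17.2% of all genes and 16.1% of those above the median level. For Thbs1, Comp and Cilp this order went with a range above 1 log2 unit, which held for 2.23% of all genes and 4.19% of those above the median level. Male 2 and female 2 were the 2 highest arrays for Postn and Tnxb, against 16% of all genes and 16.1% of those above the median level.

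The members also differed in how closely their profiles followed each other. Likeness was measured as the root mean square difference of values centred on each gene's mean, over the 4 arrays. The closest pair was Thbs4 and Tnxb, at 0.12 log2 units, both high in female 2 and near level elsewhere. Comp and Thbs1 followed at 0.19, a pentameric and a trimeric thrombospondin gene that were both lowest in male 2. With 4 arrays such likeness describes these arrays and says nothing about a shared regulator.

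The female minus male difference was then computed for each gene, which is the comparison the study was built on. The mean was higher in females for 8 of the 10 genes, against 48.7% of all genes and 56.3% of those above the median level. The median difference was 0.34 log2 units, against -0.0062 over all probe sets tested. These figures rested on single arrays: without female 2, 4 of 10 were higher and the median was -0.24, and without male 2, 4 of 10 were higher and the median was -0.15. Without female 1, 10 of 10 were higher, with a median of 0.95. Beside these counts, the 14 muscle markers had a summed log2 level of 123 in female 2 and of 134 to 136 in the other arrays. The markers did not move by the same amount. The fast fibre genes Actn3 and Myh4 were at 6.68 and 7.35 in female 2, against at least 9.41 and 10.20 elsewhere. Pvalb and Myoz1 were at 7.17 and 5.43 there, against at least 8.63 and 7.29. Myh1 (8.93), Myh2 (9.34) and Myh7 (8.49) lay within the range of the other arrays. All the other muscle markers were also lowest in female 2, by smaller amounts. The part of muscle in the differences of the 10 genes was not tested.

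No member was called different between the sexes in the test. Limma called 0 of the 10 genes after Benjamini-Hochberg adjustment over 23521 probe sets, and 0% of all probe sets; the adjusted p of the 10 genes lay between 0.969 and 0.999. At an unadjusted p under 0.05 there was 1 of 10 genes, Thbs2, against 4.49% of all probe sets. The sex check genes were not called either. Xist, with a difference of 5.47, had the lowest adjusted p of all probe sets, 0.772 by limma. Eif2s3y, with a difference of -2.45, had an adjusted p of 0.969. A count of 0 therefore does not show that the 10 genes were alike in the sexes.

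The male mean of Thbs2 was 4.39 ± 0.27 (SD, n = 2) and the female mean 5.08 ± 0.35 (SD, n = 2). The difference was 0.69 (SE 0.25, 95% interval 0.02 to 1.37), with an unadjusted p of 0.0462 and an adjusted p of 0.969 by limma. Both females lay above both males, and the difference was 0.45 without female 2. Thbs4 was the other gene whose sexes did not overlap, with a difference of 0.51 (SE 0.34, 95% interval -0.41 to 1.42). It was 0.04 without female 2. Groups that did not overlap with females higher were found in these 2 of 10 genes and in 15.7% of all genes (19.2% of those above the median level). The males were higher throughout in 0 of 10 genes, against 17.6% of all genes and 12.8% of those above the median level.

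Thbs1 had the widest difference, 0.75 (SE 0.83, 95% interval -1.48 to 2.99), from a male mean of 3.65 ± 1.23 (SD, n = 2) to a female mean of 4.41 ± 1.21 (SD, n = 2). The gap between the 2 males was 1.73 and that between the 2 females 1.72, each wider than the sex difference. Comp differed by 0.50 (SE 0.79), beside gaps of 1.37 between the males and 1.85 between the females. Cilp differed by -0.15 (SE 0.76), beside gaps of 1.73 and 1.38. In 6 of the 10 genes both gaps within a sex were wider than the difference between the sexes, against 42.1% of all genes and 43% of those above the median level.

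The other differences were Tnxb at 0.59 (SE 0.42), Postn at 0.19 (SE 0.83), Tnc at 0.06 (SE 0.27), Cilp2 at 0.04 (SE 0.39) and Prg4 at -0.25 (SE 0.37). The 95% intervals of all of these included 0. For Postn the interval ran from -2.03 to 2.41, so differences of several fold in either direction could not be told from 0 with these arrays.

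**Figure D3:**
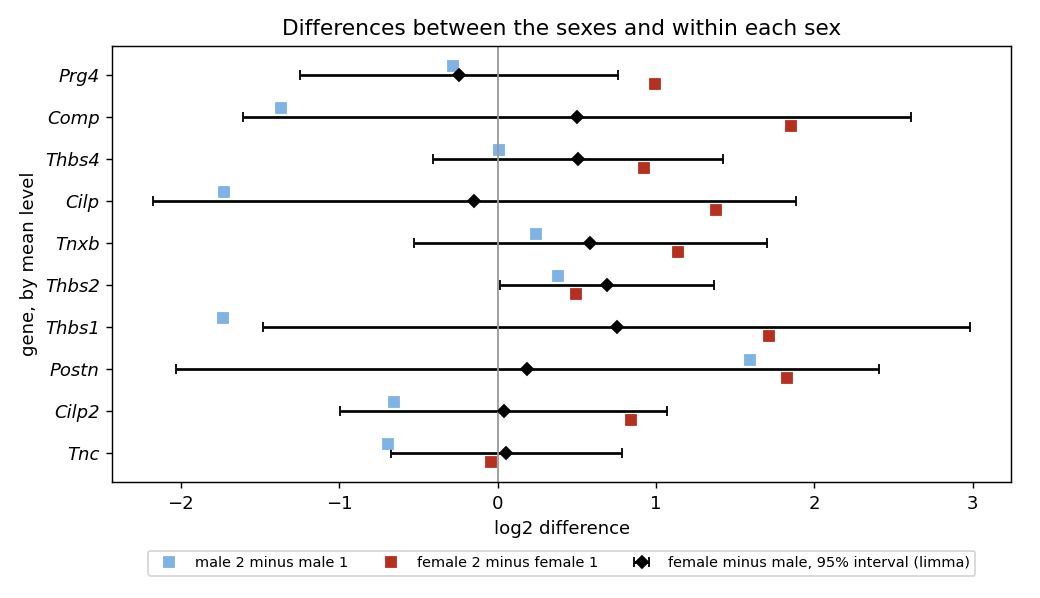
Log2 differences (horizontal axis) for the 10 genes ordered by mean level (vertical axis): black diamonds give female minus male with the 95% interval of the limma fit (n = 2 arrays per sex), light blue squares male 2 minus male 1, and red squares female 2 minus female 1. For Comp, Cilp, Thbs1 and Postn the squares lie farther from 0 than the diamond.

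Genes around the 10 were compared through lists. Of the other thrombospondin and tenascin genes, Thbs3, a pentameric thrombospondin gene, was at 3.45 and 3.81 in males and at 4.65 and 4.37 in females. Its difference of 0.88 (SE 0.21) had an adjusted p of 0.969 by limma. Tnr, a tenascin gene of the nervous system, and Tnn had means of 1.61 and 2.39, below or near the array medians.

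Among 19 of 20 other matricellular genes measured, 9 were higher and 10 lower in females, with a median difference of -0.06 and 0 called; 5 were higher without female 2. Ccn2, the connective tissue growth factor gene, was at 6.94 and 6.77 in males and 6.76 and 8.23 in females, a difference of 0.64 (SE 0.52). As with Thbs4, female 2 alone was high, and the Ccn2 difference was -0.10 without it. Ccn3, of the same family, differed by 0.56 (SE 0.30). Sparc, which encodes a collagen-binding protein, and Sparcl1 gave strong signals, with means of 8.23 and 8.08.

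Receptors of matricellular proteins were higher in females in 14 of 18 genes, with a median difference of 0.18 and 0 called; leaving out female 2 gave 10 of 18 with a median of 0.07, and leaving out male 2 gave 12 of 18 with a median of 0.06. Cd36 and Cd47, which encode thrombospondin-1 receptors, had means of 8.42 and 6.75 and differences of 0.18 (SE 0.27) and 0.02 (SE 0.25). Cd36 is also a fatty acid transporter of muscle, fat and vessels. Itga9, the integrin subunit gene for tenascin-C binding, differed by 0.60 (SE 0.28), and Itgav, a subunit gene of integrins that bind several of these proteins, by 0.30 (SE 0.18).

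Collagens, other partners and processing enzymes were higher in 9 of 19 genes, with a median of -0.0039 and 0 called; the count was 4 without female 2, 5 without male 2 and 14 without female 1. Fn1, the fibronectin gene, had a mean of 9.27 and Col3a1 differed by -0.34 (SE 0.36). Bmp1, the procollagen protease gene whose product binds periostin, reached 3.62 in female 2, with the other 3 arrays between 2.22 and 2.60. Tendon lineage regulators were higher in 9 of 16, with a median of 0.03 and 0 called, and in 5 of 16 without male 2 and 6 of 16 without female 2. At an unadjusted p under 0.05 limma gave 3 of the 16 regulators, 1 of the 3 other thrombospondin and tenascin genes (Thbs3) and 0 of the other matricellular genes, receptors and partners, against 4.49% of all probe sets. The 3 regulators were Egr1, an immediate early transcription factor gene, at -1.58 (SE 0.43), Tgfb2 at -0.67 (SE 0.15) and Wwtr1 at -0.53 (SE 0.15). Each had an adjusted p of 0.969 by limma. Tgfbr2, a TGF-beta receptor gene, was not among them. It differed by 1.05 (SE 0.53), and by 0.35 without female 2.

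Creb5, a transcription factor gene that promotes Prg4 expression in bovine articular chondrocytes, was in the regulator list and was singled out after its values were seen. It was at 7.47 in male 1, 5.55 in male 2, 6.01 in female 1 and 7.54 in female 2. Male 1 and female 2 were its highest arrays, as in Thbs1, Comp and Cilp and in 17.2% of all genes. Prg4 itself shared the 2 highest arrays but covered 0.99 log2 units against 1.99 for Creb5.

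Profiles were also compared with 2400 candidate genes that had a range above 1 log2 unit and a mean above the median. Predicted and clone-named genes, microRNAs and other small RNAs, and olfactory and vomeronasal receptor genes were left out of the candidates. Those most like Comp were Fads1, a fatty acid desaturase gene (0.05 log2 units apart), Foxc1, a forkhead transcription factor gene (0.08), and Npy, a neuropeptide gene (0.09). Those most like Cilp were Fndc1 (0.05), Tagln, a smooth muscle and myofibroblast gene (0.07), and Vcan, the versican gene (0.12). Vcan was at 7.10 and 5.52 in the males and 5.48 and 7.11 in the females. Those most like Thbs1 were Foxc1 (0.11), Dlx5 (0.15) and Lair1 (0.18). Postn was nearest to Vkorc1, Chd3 and Slco2a1 (0.15 to 0.17), Tnxb to Csnk2a2, Cd302 and Pcgf2 (0.02 to 0.06), and Thbs2 to Exo5, Plekhm3 and Dynlrb1 (0.04 to 0.05).

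**Figure D4:**
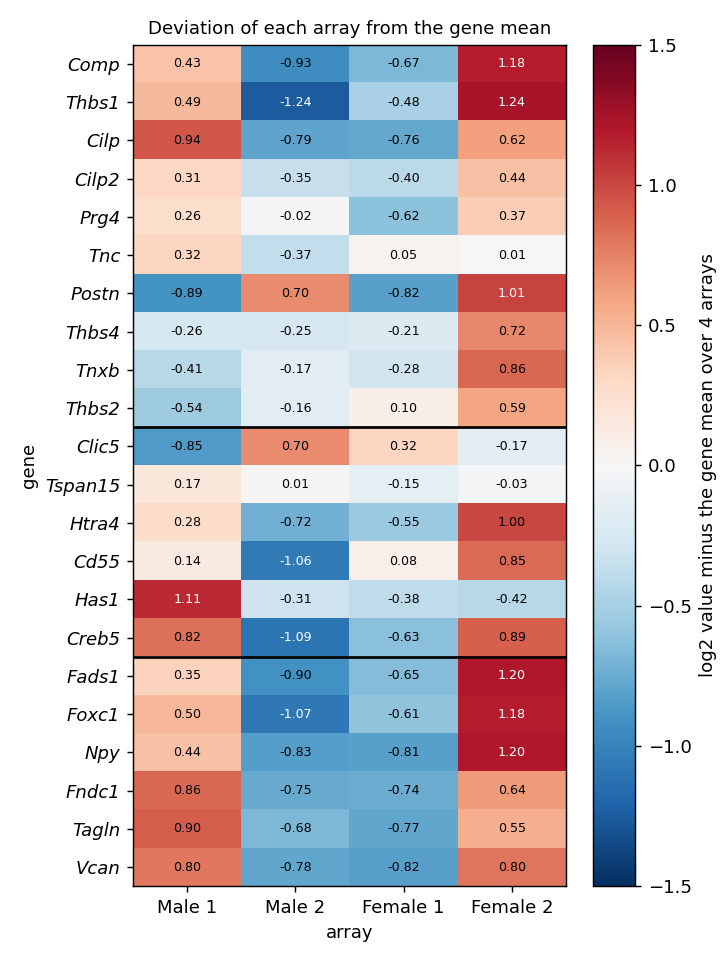
Log2 value minus the gene's mean over the 4 arrays (colour and printed number) for each array (horizontal axis) and gene (vertical axis); the blocks are the 10 matricellular genes, the 5 synovial lining markers with Creb5, and the genes most like Comp and Cilp. Thbs1, Comp and Cilp are red in male 1 and female 2 and blue in male 2 and female 1, with deviations from -1.24 to 1.24 for Thbs1.

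Markers of tissues next to tendon were read beside these patterns. Of the 5 synovial lining markers, 2 (Htra4 and Cd55) had male 1 and female 2 as their highest arrays, against 17.2% of all genes. The same order held for 12 of 19 matrix partners and processing enzymes and 5 of 8 tendon cell markers. It held for 7 of 19 other matricellular genes, 7 of 18 receptors and 6 of 16 tendon lineage regulators. Among other cell types it held for 3 of 4 Schwann cell, 3 of 9 macrophage, 0 of 14 muscle and 0 of 8 endothelial markers. Htra4, a protease gene, was at 5.53, 4.53, 4.70 and 6.25 in male 1, male 2, female 1 and female 2, and Cd55, a complement regulator gene, was at 5.48, 4.27, 5.42 and 6.18. Clic5 ran differently, with 6.41 in male 1 and 7.97 in male 2, and Has1, a hyaluronan synthase gene, was at 4.30 in male 1 and between 2.77 and 2.88 elsewhere. The summed log2 level of the 5 markers was 24.8, 22.5, 23.2 and 25.1 in the order of the arrays.

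Of 9 cartilage markers, 4 had male 1 and female 2 highest (Acan, Chad, Col9a1 and Hapln1), against 17.2% of all genes. The summed log2 level of the 9 ran from 28.5 to 31.1. A mean above every array's median was found in 5 of the 9, among them Sox9 (4.13) and Col2a1, which lay between 2.76 and 2.91. The others, Cnmd, Hapln1, Matn3 and Col9a1, had means of 1.41, 1.62, 1.70 and 2.20, below every array's median. The order of arrays in Hapln1 and Col9a1 was thus not told from background. Acan, the aggrecan gene, was at 3.29, 2.64, 2.92 and 3.85 in the order of the arrays. Chad, a gene shared by cartilage and tendon, was at 10.30, 9.70, 9.69 and 10.70. The part of lining or cartilage-like tissue in the spread of Comp, Cilp, Thbs1 and Prg4 was not tested.

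Platelet markers were read beside Thbs1, of which platelets are a source. Of 7 markers, 5 were measured and 3 had a mean above the array medians, with a summed log2 level of 15.6 to 18.8. Itga2b, which defines the lineage, had a mean of 2.18, below every array's median, as had Ppbp (2.19). Gp9 was at 2.88, 2.81, 2.35 and 3.50 in the order of the arrays. Male 1 and female 2 were the 2 highest arrays for 2 of the 5, Gp9 and Ppbp, as for Thbs1, against 17.2% of all genes. Pf4, also expressed by macrophages, was at 6.12, 6.24, 6.31 and 7.55 in the order of the arrays. The part of platelets in the spread of Thbs1 was not tested. All 9 macrophage markers measured were higher in females in mean, and 5 of 9 without female 2, with a summed log2 level of 50.7 in female 2 and of 37.6 to 39.2 elsewhere, and their part in the high values of Thbs4, Tnxb and Ccn2 in that array was not tested.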

How the data were processed

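Tendon RNA was measured on Mouse Gene ST 2.1 arrays, 1 per sample, and the labels list several RNA wells per sample without saying how they were combined. The authors deposited log2 values, made with oligo and RMA per the submitters' processing notes. Tool versions, summary level and annotation build are not given in the sources used here. Of 41345 rows, 23521 probe sets had exactly 1 gene symbol, 1814 had several and 16010 none; 23328 were matched by Entrez ID to RefSeq (GRCm38.p6), used for chromosomes and promoter windows. No further normalization was applied.

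A gene was represented by its probe set of highest mean. With limma 3.58.1 (R 4.3.3), sex was fitted alone to all 23521 probe sets, with Benjamini-Hochberg adjustment over them and a threshold of 0.05. An exact permutation test of 2 against 2 cannot go below a two-sided p of 0.333. Differences are female minus male, and intervals are those of the moderated test. The number of arrays limits the precision. Simulated data of 2 arrays against 2 were made in 20 sets of 23521 probe sets, with 200 changed in each set. Limma called 0.7% of those changed by 1 log2 unit, 48.5% by 2 and 89.2% by 4. These rates depend on the 200 changes and do not carry over to the arrays here. In these arrays Xist, with a difference of 5.47, was not called (adjusted p 0.772 by limma). From each list the 2 genes of widest difference, among those whose higher sex mean lay above the median of all probe sets, were named, with Scx, Tnmd, Ckm and the sex-linked genes in any case and the 3 genes most like each gene of range above 1 log2 unit; other names were picked with values in view. Lists covered the 10 genes, other thrombospondin and tenascin genes, other matricellular genes, receptors, matrix partners and processing enzymes, tendon lineage regulators, and markers of tendon, muscle, cartilage, synovial lining, macrophages, platelets, vessels, pericytes, fat and Schwann cells. The members, lists and motifs were chosen with earlier results of these data known. Plots were made in Python 3.11.15 (matplotlib 3.10.9).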

Additional observations from a re-analysis of the deposited data

How the results depend on the processing

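In each of the alternatives (leaving out each array, testing all rows, only probe sets above the median level or 1 probe set per gene, averaging probe sets by gene, repeating quantile normalization, centring arrays on their medians, weighting arrays, a prior that is trended and robust, and blocking on replicate number), limma called 0 of the 10 genes. Leaving out single arrays moved the number of genes higher in females from 8 to between 4 and 10. It also turned the sign of 7 genes, whose differences then ran from -0.74 to 0.25 for Prg4, -0.42 to 1.43 for Comp, -1.01 to 0.72 for Cilp, -0.11 to 1.62 for Thbs1, -0.73 to 1.10 for Postn, -0.38 to 0.46 for Cilp2 and -0.29 to 0.40 for Tnc. Thbs2 (0.45 to 0.94), Thbs4 (0.04 to 0.97) and Tnxb (0.02 to 1.16) kept their sign. Repeating quantile normalization turned Cilp2 to -0.018. Where 1 array of a sex was left, its spread was taken to equal that of the other sex. With the replicate number as a block, limma called 0 probe sets and the number of genes higher in females was 8; the numbers mark no shared animal, and the male and female gaps between numbers correlated at -0.064 over probe sets. Tnc did not pass the filter on the median level. The median percentile of the 10 genes lay between 90.01 and 92.06 after quantile normalization, averaging probe sets by gene, ranking all probe sets and leaving out each array. The number with a range above 1 log2 unit lay between 4 and 7 after quantile normalization, centring and leaving out each array; Thbs4 crossed that limit after quantile normalization (1.01).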

Other observations

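Marker lists outside the comparisons above had 0 genes called by limma. Fat markers were higher in females in 7 of 8 genes, endothelial markers in 6 of 8 and Schwann cell markers in 3 of 4 measured, while pericyte and smooth muscle markers were lower in 7 of 8. The median differences were 0.74, 0.27, 0.35 and -0.15, in that order. Without single arrays the fat median lay between 0.38 and 1.09. The endothelial median was -0.0033 without male 1, with 4 of 8 higher, and the Schwann cell median was 0.03 without female 2, with 2 of 4 higher. At an unadjusted p under 0.05 limma gave 3 fat, 1 endothelial, 1 pericyte and smooth muscle and 0 Schwann cell markers, against 4.49% of all probe sets. The widest differences among genes above the median were Plin4 (1.59) and Cidec (1.57) for fat, Emcn (1.45) and Flt1 (1.08) for vessels, Higd1b (-0.62) and Pdgfrb (-0.54) for pericytes, S100b (0.69) and Pmp22 (0.46) for Schwann cells, H2-Aa (1.93) and Cd68 (1.18) for macrophages, and Pf4 (0.75) and Treml1 (-0.11) for platelets. S100b, a Schwann cell gene also found in cartilage and fat, was at 5.35 in male 1, 3.61 in male 2, 4.58 in female 1 and 5.76 in female 2, the order of arrays seen in Thbs1 and Comp.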
